A study of Sus scrofa with 34 samples.

Results

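The retinoid enzymes and carriers named here were chosen by their gene symbols: DHRS4, RETSAT, DHRS3, RDH16, ALDH1A1, RBP4, LRAT, STRA6 and CYP26A1. Of these 9 genes, 8 had a row among the 25880 Ensembl genes of the count tables, of which 14857 carried a symbol, and RDH16 was not analysed here. All 9 genes and the gene lists used below were chosen with earlier results of these data known, so none was chosen blind. For DHRS4 and RETSAT, the known results included their values in livers of pigs fed oxidized oil. Which comparison was used for the choice is not recorded, and it was taken to be OO against control, which is given below as a description with a count of calls but no p-values for these genes. If OO + PFA against PFA was also in view, its p-values are not independent of the choice. All 8 genes were followed across 4 diets in the liver and 2 diets in the ileum.

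The data were poly(A) RNA-seq counts from weaned crossbred piglets of both sexes, sampled on day 28 of feeding. The diets were a control diet, a diet with a phytogenic feed additive (PFA, a blend of herbal oils and aroma compounds), a diet with oxidized (heated) rapeseed oil (OO), and a diet with both (OO + PFA). By the study's diet composition, the oxidized oil did not replace the fresh oil of the control diet. The oil diets therefore held more oil and a higher calculated energy, and oxidation and added oil cannot be told apart. Liver was measured in 6 pigs of each diet, and ileum in 5 control and 5 PFA pigs, which also gave a liver library. All pigs of a diet shared 1 pen. A pen effect and a diet effect therefore cannot be told apart, and p-values measure the spread between pigs of a pen.

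Vitamin A circulates as retinol bound to RBP4 and is stored in the liver, mostly in stellate cells, as retinyl esters that LRAT makes. Retinol dehydrogenases and retinal reductases pass the molecule back and forth between retinol and retinal, retinal dehydrogenases such as ALDH1A1 oxidize retinal to retinoic acid, and CYP26 enzymes degrade retinoic acid. Retinoic acid acts through the nuclear receptors RAR and RXR, and CYP26A1 and DHRS3 are well-known targets of these receptors.

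Between 18738055 and 42446834 read pairs per library were counted on genes. Expression is given as CPM, the usual depth-scaled count, taken here over the counts on genes after scaling of the library sizes. The study left out an OO + PFA liver for suspected RNA degradation without naming the pig. It was taken here to be OP-77, which had the most read pairs with several alignments of all livers (36.6 for every 100 counted on genes) and the fewest counted, and which is kept out of the fits unless stated, leaving 5 OO + PFA livers. Among the other livers C-80 stood apart, with 23.5 read pairs on no annotated gene for every 100 counted on genes. The hepatocyte genes TTR and CYP2E1 had 0 counts in all 10 ileum libraries. The enterocyte gene SI had 0 counts in the control, OO and OO + PFA livers, but not in all PFA livers. As lists, both sets were present in the other tissue at lower levels. The 8 hepatocyte genes summed to 4144 to 9122 CPM in control ileum and 89015 to 160926 CPM in control livers. The 6 enterocyte genes summed to 336 to 605 CPM in control livers and 17361 to 22222 CPM in control ileum. In whole tissue, fewer cells of a type and less RNA per cell cannot be told apart.

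DHRS4, a peroxisomal enzyme that reduces retinal and other carbonyl compounds, lies at chr7:75242121-75255594 on the minus strand of Sscrofa11.1 (RefSeq). The 250 bases before its annotated start are shown because DHRS4 had the largest change of the 8 genes with diet. RETSAT, which saturates a double bond of retinol to give dihydroretinol, lies at chr3:59401161-59416829 on the plus strand. Its span overlaps those of ELMOD3 and TGOLN2, so its counts are less certain, the more so if strand was not used in counting. The span of the RBP4 gene (chr14:105037360-105044552, minus strand) overlaps that of PDE6C. CYP26A1 (chr14:104561394-104567099, plus strand) is shown by 30 bases before the start of its curated transcript, because they hold a retinoic acid response element, in capitals.
DHRS4 (chr7:75255595-75255844, minus strand): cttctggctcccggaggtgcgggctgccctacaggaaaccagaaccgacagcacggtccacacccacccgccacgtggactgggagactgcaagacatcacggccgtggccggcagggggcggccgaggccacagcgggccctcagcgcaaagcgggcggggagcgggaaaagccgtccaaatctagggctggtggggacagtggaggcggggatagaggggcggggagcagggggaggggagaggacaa
CYP26A1 (chr14:104563524-104563553, plus strand): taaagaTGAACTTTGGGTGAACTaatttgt

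The element is a DR5, a direct repeat with a spacer of 5 bases, on the strand opposite to the gene, 64 to 48 bases upstream of the start. DR5 was searched with the half-site AGTTCA, the letters of this very element, so its exact match follows from the choice of letters and is no finding, while DR1 and DR2 were searched with the half-site AGGTCA. Among 19556 RefSeq promoters of 250 bases, searched on both strands, 1.21% held a DR5 with at most 2 mismatches. DR1 repeats, with a spacer of 1 base and known as the form bound by PPAR with RXR, occurred with at most 2 mismatches in 2.72% of the promoters, and DR2 repeats, with a spacer of 2 bases, in 1.64%. None of these elements was found in the window of any other of the 9 genes, DHRS4 and RETSAT included. A match is a description of the letters, and binding was not measured.

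In the liver, DHRS4 was low in the control pigs, between 46.1 CPM in C-71 and 66.3 CPM in C-85 with a median of 51.5. The PFA pigs lay between 44.0 and 67.8 CPM (median 55.6). The OO pigs lay between 332.0 CPM in OO-97 and 1088 CPM in OO-130 (median 612). All 6 OO livers were above all 12 livers without oil, by 11.7-fold over control in the fit (log2 fold change 3.55, SE 0.21). Of all genes, 0.781% were higher in OO than control without overlap, and no share was taken for OO against all 12 livers without oil. Of 13831 genes tested for OO against control, 11 had a larger log2 fold change.

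The 5 OO + PFA livers held 234.1, 298.5, 270.2, 291.3 and 295.0 CPM of DHRS4, in OP-79, OP-98, OP-105, OP-126 and OP-137. They formed a narrow band above all livers without oil and below all 6 OO livers. DHRS4 rose 4.99-fold in OO + PFA against PFA (log2 fold change 2.32, SE 0.20, adjusted p = 7.5e-07, edgeR quasi-likelihood test with Benjamini-Hochberg adjustment over all genes), in 5 of 5 pigs. Of all genes, 4.69% were higher in this comparison without overlap. OO + PFA against PFA shares no pig with OO against control, but both come from the same fit. If it was also in view for the choice, its p-values for DHRS4 and RETSAT are not independent of that choice.

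**Figure D1:**
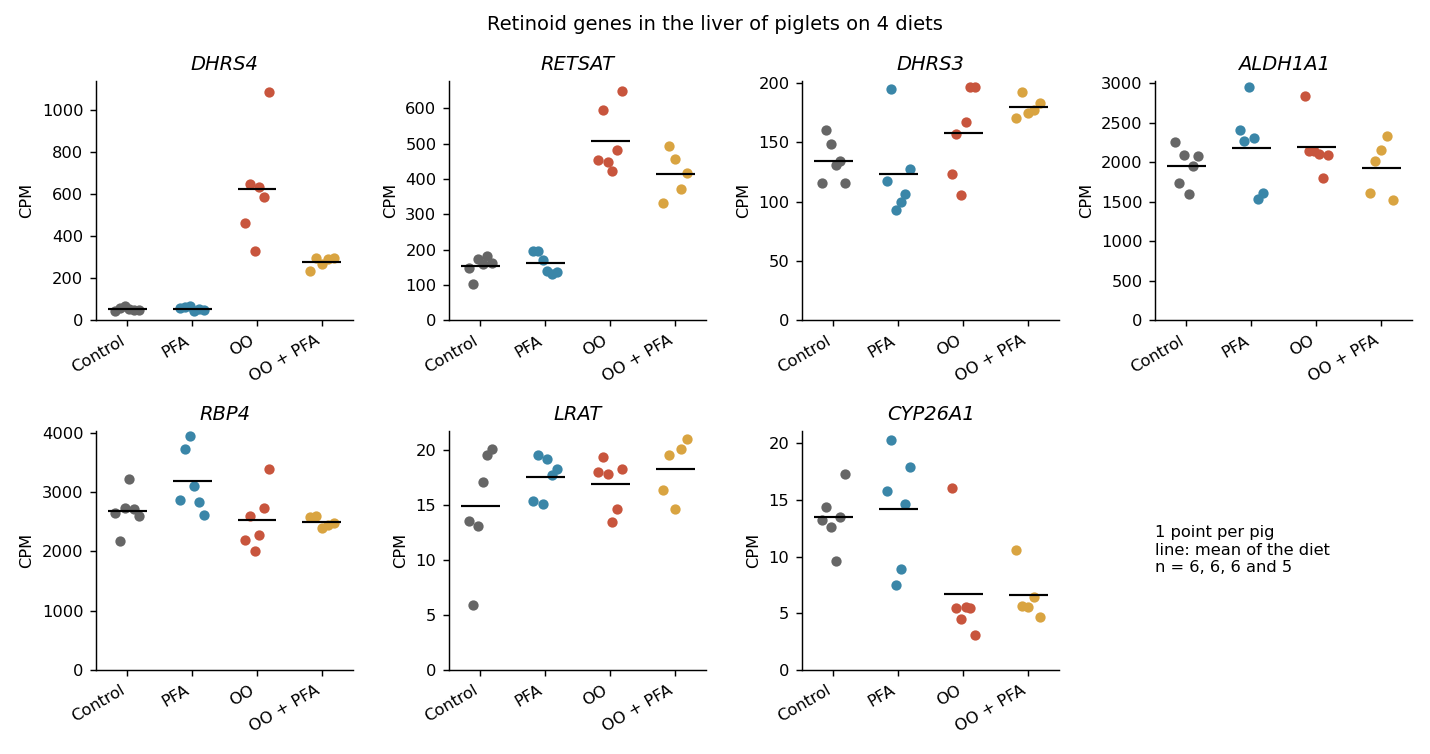
Expression in CPM (y axis, linear, from 0) of 7 retinoid genes in each liver by diet, with 1 point per pig and a line at the mean of the diet (6 pigs, and 5 for OO + PFA). DHRS4 and RETSAT are higher in all OO and OO + PFA livers than in any liver without oil, and the 5 OO + PFA livers lie below the 6 OO livers for DHRS4.

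RETSAT was also higher in the livers with oil, by smaller steps. Control livers lay between 101.8 CPM in C-80 and 180.7 CPM in C-100 (median 160), and PFA livers between 131.9 and 196 CPM (median 156). OO livers lay between 422.9 CPM in OO-99 and 649 CPM in OO-130 (median 468). The OO + PFA livers held 331.9, 492.6, 454.9, 371.6 and 415.9 CPM in OP-79, OP-98, OP-105, OP-126 and OP-137. All 11 livers with oil were above all 12 without, but those of OO and OO + PFA overlapped. Of all genes, 0.781% were higher without overlap in OO than control, and 4.69% in OO + PFA than PFA. No share was taken for all livers with oil against all without. RETSAT was 3.30-fold higher in OO than control (log2 fold change 1.72, SE 0.15), and rose 2.55-fold in OO + PFA against PFA (log2 fold change 1.35, SE 0.16, adjusted p = 2.59e-05, edgeR), in 5 of 5 pigs.

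In OO against control, 2 of the 7 genes tested passed an adjusted p of 0.05, DHRS4 and RETSAT, where 2.71% of all genes tested did. Nothing is read from this count, since that comparison was taken as the one that chose them. In OO + PFA against PFA the same 2 of 7 passed, where 1.58% of all genes did. If that comparison was also in view for the choice, this count is not independent of it either. STRA6 was left out of both by the filter on low counts.

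DHRS3, which reduces retinal to retinol, did not pass in any diet comparison. Its control livers lay between 115.5 and 160.7 CPM (median 133), PFA livers between 92.5 and 195 CPM (median 112), and OO livers between 106 and 196 CPM (median 162). The OO + PFA livers lay close together, at 170.3, 192.2, 174.5, 177.4 and 183.1 CPM. They were above 5 of the 6 PFA livers, and P-75 alone, at 195 CPM, was above them. The difference of OO + PFA from PFA was 0.54 on the log2 scale (SE 0.17, adjusted p = 0.105, edgeR), and without P-75 it was 0.72 (adjusted p = 0.0197). That was the only 1 of 21 alternative fits in which DHRS3 passed, and over all of them the difference lay between 0.42 and 0.72. OO differed from control by 0.23 (SE 0.17).

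ALDH1A1, the retinal dehydrogenase that makes retinoic acid, lay between 1591 and 2259 CPM in control livers, 1535 and 2955 CPM in PFA livers, 1805 and 2843 CPM in OO livers, and 1523 and 2330.0 CPM in OO + PFA livers. The 4 ranges overlapped. The log2 fold change was 0.16 (SE 0.16) for OO against control and -0.18 (SE 0.17, adjusted p = 0.527, edgeR) for OO + PFA against PFA.

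CYP26A1, which degrades retinoic acid, was lower in most livers with oil. Control livers lay between 9.63 and 17.3 CPM (median 13.4) and PFA livers between 7.52 and 20.3 CPM (median 15.2). Of the 6 OO livers, 5 lay between 3.04 and 5.58 CPM, below all livers without oil, while OO-74 held 16.0 CPM. The OO + PFA livers held 10.6, 5.67, 5.59, 6.42 and 4.67 CPM in OP-79, OP-98, OP-105, OP-126 and OP-137, and only OP-79 was within the PFA range. These levels rest on 52 to 652 counts per liver.

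The log2 fold change of CYP26A1 for OO against control was -1.01 (SE 0.31), and -1.48 without OO-74. For OO + PFA against PFA it was -1.10 (SE 0.33), which missed the threshold with an adjusted p of 0.089 (edgeR) although 5 of 5 livers were below the PFA mean. The adjusted p was 0.0214 with DESeq2, 0.0435 with all 24 liver libraries and 0.0323 with these diets fitted alone, and over all alternatives it ranged from 0.0214 to 0.481. CYP26A1 also passed for OO + PFA against PFA with the GC correction described below (log2 fold change -1.25, adjusted p = 0.0445, edgeR). In the same genes without the correction the adjusted p was 0.0819. OO and OO + PFA differed by -0.02 (SE 0.33).

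**Figure D2:**
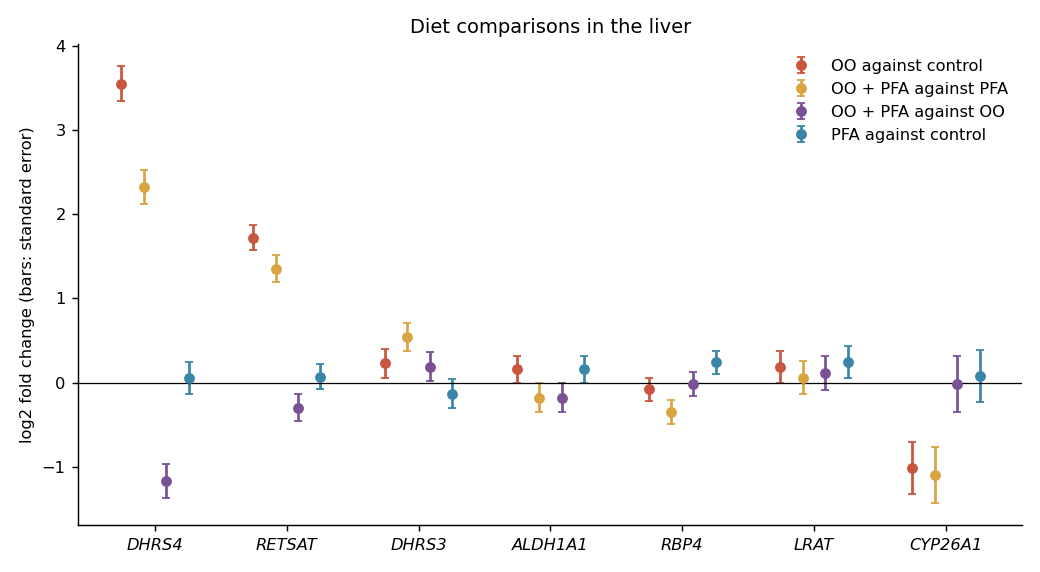
Log2 fold changes (y axis) of 7 retinoid genes in 4 diet comparisons of the liver from 1 edgeR fit of 23 libraries, with bars for the standard error. DHRS4 and RETSAT stand far above 0 in both oil comparisons, CYP26A1 lies near -1.01 and -1.10, and all PFA against control values lie between -0.13 and 0.24.

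Among the carriers and storage genes, RBP4 lay between 2182 and 3226 CPM in control livers (median 2682), 2618 and 3941 CPM in PFA livers (median 2986), and 2015 and 3399 CPM in OO livers (median 2440.0). The OO + PFA livers held 2586, 2595, 2392, 2451 and 2478 CPM in OP-79, OP-98, OP-105, OP-126 and OP-137, all below the lowest PFA liver, P-138. Of all genes, 1.80% were lower in this comparison without overlap. The difference of OO + PFA from PFA was -0.35 on the log2 scale (SE 0.14, adjusted p = 0.157, edgeR), and OO differed from control by -0.08 (SE 0.14).

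LRAT lay between 5.93 and 20.1 CPM in control livers (median 15.3), 15.1 and 19.5 CPM in PFA livers, 13.5 and 19.4 CPM in OO livers, and 14.6 and 21.0 CPM in OO + PFA livers. The lowest value was that of C-80. In that liver the summed level of 10 stellate cell genes was also the lowest of the controls, 649 CPM of a control range of 649 to 1891 CPM, and so was that of 4 endothelial genes, 60.4 CPM of 60.4 to 335.0 CPM. The same liver was also lowest for the hepatocyte (89015 CPM), Kupffer cell (229 CPM) and cholangiocyte genes (9.33 CPM) and highest for the lymphocyte genes (39.9 CPM), so the shift was not limited to stellate and endothelial genes. Their part in the LRAT value was not tested. The log2 fold change of LRAT was 0.18 (SE 0.19) for OO against control and 0.06 (SE 0.20, adjusted p = 0.875, edgeR) for OO + PFA against PFA. STRA6, the cell surface receptor for RBP4, had 0 to 4 counts in each liver and no fold change is given for it.

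PFA without oil left no detectable difference in these genes. For PFA against control in the liver, the log2 fold changes of the 7 genes tested lay between -0.13 and 0.24, with SEs of 0.14 to 0.31. Of the 7 genes 0 passed, and of all genes 0 of 13831 passed (0.0%), while 1522 had an unadjusted p under 0.05. DESeq2 called 43 genes in this comparison and none of the 7. DHRS4 differed by 0.06 (SE 0.19) and RETSAT by 0.07 (SE 0.15).

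In pigs fed oil, DHRS4 was 2.26-fold lower with PFA than without (log2 fold change -1.17, SE 0.20), and all 5 OO + PFA livers were below all 6 OO livers. Of all genes, 0.441% were lower without overlap in this comparison. It uses the same 6 OO livers as OO against control, and a gene chosen for being high in them tends to be lower in any other group. The difference is therefore given as a description, with no p for DHRS4 or RETSAT. With edgeR 0 of the 7 genes passed, as did 0 of 13831 genes (0.0%, with 1176 at an unadjusted p under 0.05), and DESeq2 called 31 genes, with DHRS4 among them. Nothing is read from that call of DHRS4, since its choice favours a lower value here. RETSAT differed by -0.30 (SE 0.16), with 5 of 5 livers below the OO mean, and the other 5 genes by -0.18 to 0.19.

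The difference of the oil effect between pigs with and without PFA, fitted as an interaction, contains OO against control, so the choice of DHRS4 and RETSAT favours a negative value for them and no p is given for either. It was -1.23 for DHRS4 on the log2 scale (SE 0.28) and -0.37 for RETSAT (SE 0.22). For CYP26A1 the interaction was -0.10 (SE 0.45, adjusted p = 0.948, edgeR). With edgeR 0 of the 7 genes and 0 of 13831 genes were called (0.0%, with 1881 at an unadjusted p under 0.05), and DESeq2 called 150, with DHRS4 among them. For the same reason nothing is read from that call of DHRS4.

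The libraries differed in how their counts moved with the GC content of the genes, and DHRS4 has a GC content of 58.1%. The slope against GC content, in log2 units per 10 percentage points, ranged from -0.38 to 0.42 in OO livers and from 0.04 to 0.49 in OO + PFA livers. GC content was known for 79.7% of the genes tested, too few for a check of all genes, so a correction was applied to those genes alone. After it DHRS4 lay between 388.7 and 905.2 CPM in OO livers and between 183.9 and 278.3 CPM in OO + PFA livers, again without overlap. The log2 fold change of OO + PFA against OO was then -1.20 and the interaction -1.36, on the same OO livers as before.

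**Figure D3:**
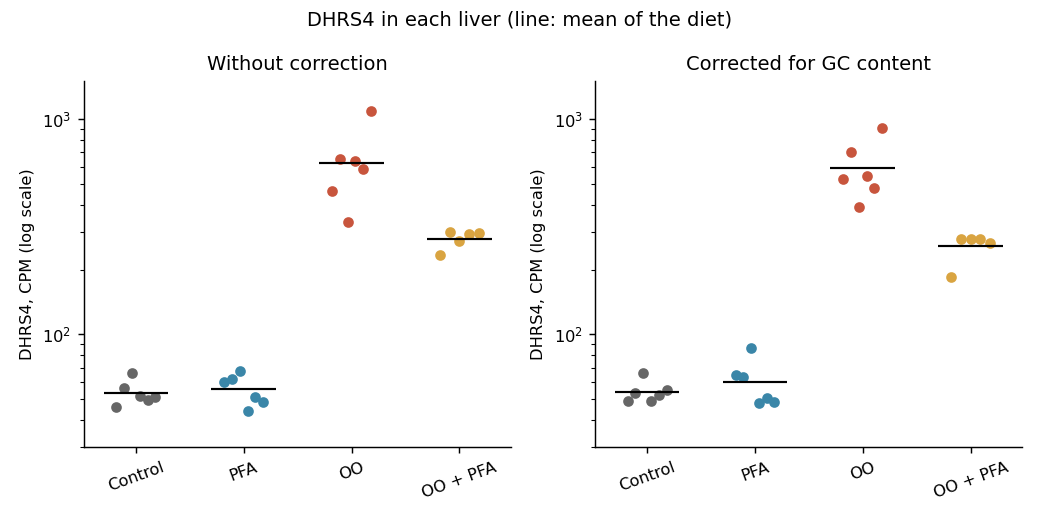
DHRS4 in each liver in CPM (y axes, log scale) by diet, as measured on the left and after correction for GC content on the right, with 1 point per pig and a line at the mean of the diet. The OO + PFA livers stay below the OO livers in both panels, from 234.1 to 298.5 CPM on the left and from 183.9 to 278.3 CPM on the right.

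The titles of the liver libraries have 2 forms, PigLiv and PL, whose meaning is not given in the sources used here. For DHRS4 the log2 fold change of OO against control was 3.52 in PigLiv and 3.43 in PL libraries, that of OO + PFA against PFA 2.44 and 2.26, and that of OO + PFA against OO -1.05 and -1.20. For RETSAT the values of OO against control were 1.49 and 1.99. For CYP26A1 they were -0.56 (SE 0.39) and -1.67 (SE 0.40). Those of LRAT, -0.18 (SE 0.17) and 0.91 (SE 0.33), and of DHRS3, 0.40 (SE 0.15) and -0.06 (SE 0.35), differed in sign between the forms. The PigLiv value of LRAT and the PL value of DHRS3 lay about within their SE of 0, so little can be read from the signs. The PL libraries held 1 OO + PFA liver and 2 control livers, C-80 among them.

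The other genes of the retinoid pathway were taken from a list of 46 genes for uptake and cleavage, storage and binding, oxidation and reduction, retinoic acid synthesis, its clearance, receptors and targets. Of these, 40 had a row and 31 were tested in the liver. In each of the 5 liver comparisons 0 of 31 passed with edgeR, with 2 to 6 at an unadjusted p under 0.05, where 8.5 to 23.5% of all genes were under it. DESeq2 called 1 of the 31, lower, in OO against control, where it called 1079 of 13831 genes, and 1, lower, in OO + PFA against PFA, where it called 697. Their median log2 fold change was 0.02 for OO against control and -0.02 for OO + PFA against PFA, beside 0.06 and 0.00 over all genes.

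By role, the 7 other retinol and retinal oxidoreductases tested lay between -0.08 and 0.49 on the log2 scale for OO against control. The 5 receptors lay between -0.33 and 0.64, with RARA at 0.64 (SE 0.26) and RXRA at 0.57 (SE 0.29). The 4 genes of retinoic acid synthesis beside ALDH1A1 lay between -0.42 and 0.33, the lowest being AOX1, an oxidase of retinal and many other aldehydes. For OO + PFA against PFA the same 3 groups lay between -0.30 and 0.59, -0.22 and 0.54, and -0.55 and 0.05.

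**Figure D4:**
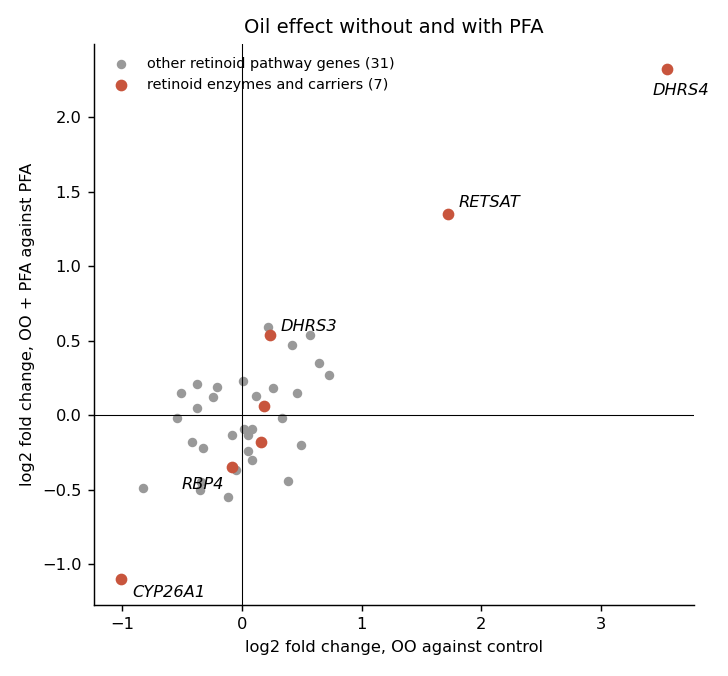
Log2 fold change of OO against control (x axis) and of OO + PFA against PFA (y axis) for 7 retinoid enzymes and carriers (red) and 31 other retinoid pathway genes (grey). The comparisons share no pig but come from the same fit, and which comparison chose DHRS4 and RETSAT is not recorded. DHRS4 (3.55 and 2.32) and RETSAT (1.72 and 1.35) lie apart from the other genes at the upper right.

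To see which genes varied most like DHRS4 and RETSAT between pigs of a diet, each gene's log2 CPM was centred on its diet and correlated over the 23 livers. These are descriptions over libraries that share depth and base composition. For DHRS4 the 5 highest of 13830 genes were RPS2 (r = 0.91), ACADS (0.87), ENSSSCG00000026387 (0.86), MRPS7 (0.85) and CISD3 (0.85). For RETSAT they were HADHB (0.81), ETFDH (0.79), ANKH (0.78), IDH3B (0.77) and NUP50 (0.76). ACADS and HADHB are enzymes of mitochondrial fatty acid oxidation, and ETFDH passes its electrons to the respiratory chain.

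DHRS4 and RETSAT correlated at 0.50 with each other, which put RETSAT at rank 1410 of 13830 genes for DHRS4. RBP4 (0.66) and DHRS3 (0.62) had a higher r with DHRS4. After the GC correction, over 11020 genes, DHRS4 had an r of 0.66 with RETSAT, 0.68 with RBP4 and 0.46 with DHRS3. RPS2 (0.89) and ACADS (0.87) were again among the 5 highest for DHRS4, as was ETFDH (0.87) for RETSAT. The rest of the 5 highest before the correction, HADHB included, were not among the 5 highest after it. LYPLA1, SUCLG1 and NDUFB8 for DHRS4 and NCKAP1, PCK2, SLC39A8 and NNT for RETSAT took their places. ALDH1A1, which had an r of 0.07 with DHRS4 before the correction, had 0.51 after it.

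In the ileum all genes but RBP4, STRA6 and CYP26A1 passed the filter on low counts. DHRS4 held 14.6, 9.79, 10.5, 12.1 and 8.26 CPM in the control pigs C-71, C-80, C-92, C-100 and C-110. In the PFA pigs P-75, P-95, P-107, P-134 and P-138 it held 12.3, 11.5, 9.60, 15.3 and 11.5 CPM. The groups overlapped, and the log2 fold change was 0.12 (SE 0.19, adjusted p = 0.991, edgeR).

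RETSAT held 124.8, 119.3, 122.0, 116.6 and 101.3 CPM in the same control pigs and 81.3, 118.3, 110.8, 165.6 and 111.8 CPM in the PFA pigs. Its log2 fold change was 0.01 (SE 0.16). That of DHRS3 was -0.20 (SE 0.15), that of ALDH1A1 0.31 (SE 0.17) and that of LRAT 0.05 (SE 0.20). Of the 5 genes tested 0 passed, as did 0 of 14300 genes (0.0%), with 401 genes at an unadjusted p under 0.05 and 4 called by DESeq2, none of them among the 5. Of the 31 other pathway genes tested 0 passed.

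Liver and ileum were then compared in the same pigs, 5 control and 5 PFA, scaled together, which gives CPM values on another scale than those above. The fit had no term for the pig, so its p-values are unpaired. Ileum and liver libraries have different title forms, and the study states a lower minimum RNA quality for liver than for ileum. Neither can be told apart from tissue. DHRS4 lay between 66.96 and 82.9 CPM in the control livers (median 75.7) and held 9.96, 6.86, 7.23, 8.36 and 5.58 CPM in the ileum of C-71, C-80, C-92, C-100 and C-110. It was higher in the liver by 3.30 on the log2 scale in control pigs (SE 0.16, adjusted p = 2.76e-09, edgeR) and by 3.31 in PFA pigs (SE 0.18, adjusted p = 2.65e-09). RETSAT was closer, at 149 to 262 CPM in control livers and 68.4 to 85.1 CPM in their ileum, a log2 fold change of 1.46 (SE 0.15) in control and 1.52 (SE 0.19) in PFA pigs.

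DHRS3 was higher in the liver by 2.68 (SE 0.12) in control and 2.82 (SE 0.24) in PFA pigs, and ALDH1A1 by 3.52 (SE 0.17) and 3.39 (SE 0.26). CYP26A1 lay between 14.3 and 25.7 CPM in control livers and had 1 to 9 counts in each ileum library, a log2 fold change of 7.36 (SE 0.41) in control and 7.03 (SE 0.44) in PFA pigs. RBP4 lay between 3197 and 4783 CPM in control livers, while the 5 control ileum libraries held 0, 7, 1, 3 and 4 counts. LRAT was the exception, with 8.68 to 29.9 CPM in control livers and 25.1 to 45.5 CPM in their ileum (log2 fold change -0.48, SE 0.29, adjusted p = 0.160, edgeR). In PFA pigs its log2 fold change was -0.28 (SE 0.17, adjusted p = 0.171).

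**Figure D5:**
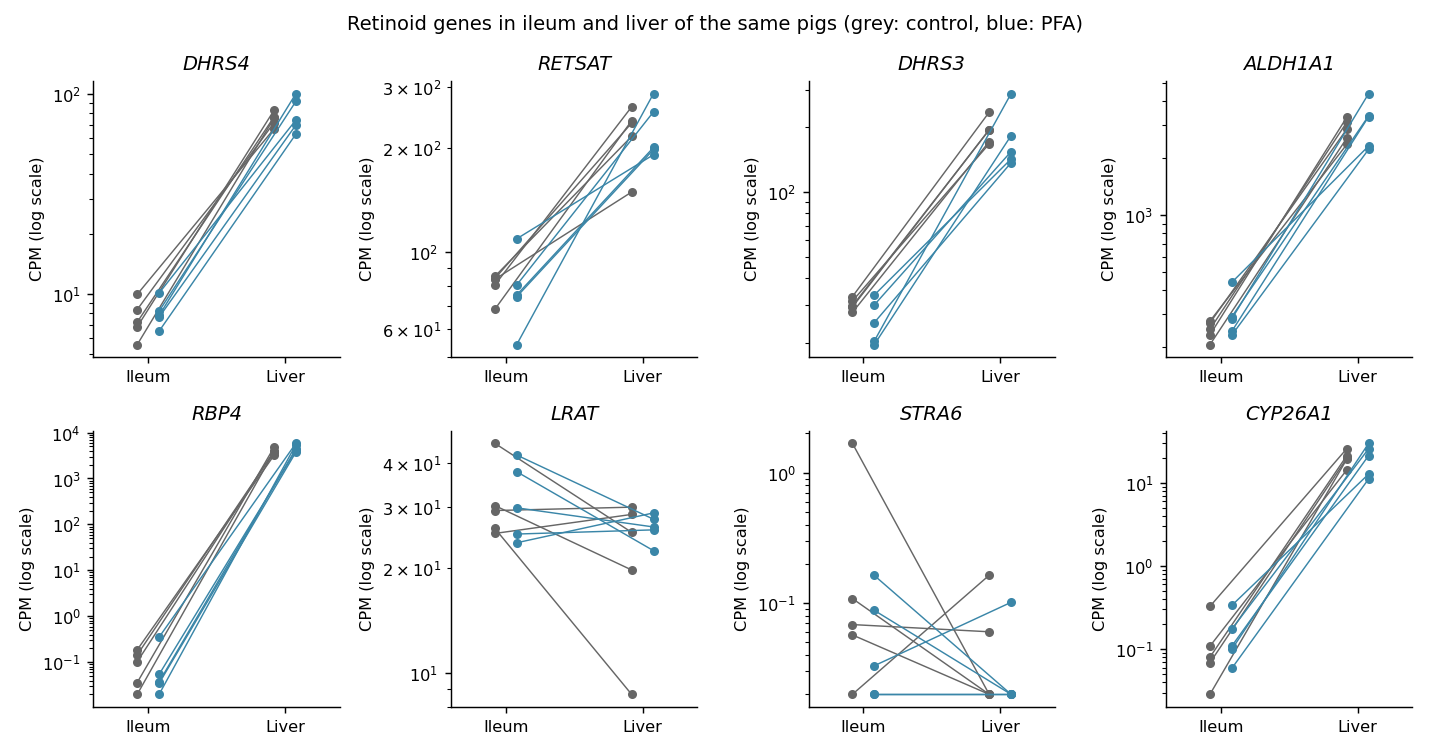
CPM (y axes, log scale, tissues scaled together, values under 0.02 drawn at 0.02) of 8 retinoid genes in ileum and liver, with a line for each pig (grey control, blue PFA, 5 each). DHRS4, RETSAT, DHRS3, ALDH1A1, RBP4 and CYP26A1 are higher in the liver in all 10 pigs, while LRAT and STRA6 show no such order.

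Of the 7 genes tested, 6 passed an adjusted p of 0.05 and a fold change of 2 in control pigs and 6 in PFA pigs, all higher in the liver, where 44.8% and 44.3% of all genes passed in either direction and 21.1% and 21.7% as higher. The calls of RETSAT and LRAT depend on the scaling. With library totals alone, which moved the median of all genes by -1.10 and -1.13, 9.09% of genes were called higher and 54.0% lower in control pigs, against 21.1% and 23.7% above. RETSAT was then higher by 0.37 and 0.36 and did not pass, and LRAT was lower in the liver by -1.55 and -1.40 and passed. STRA6 was not tested. It had 0 to 6 counts in each of 9 ileum libraries and 63 counts in C-80, whose ileum also had the highest summed level of 5 lymphocyte genes among the controls (488 CPM of 209 to 488) and the lowest of 6 enterocyte genes (17361 CPM). It was also the lowest of the controls for the stellate (3786 CPM), smooth muscle (1686 CPM), endothelial (182 CPM), cholangiocyte (929 CPM) and hepatocyte genes (4144 CPM). Their part in the STRA6 value was not tested.

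Of the other pathway genes, 14 of 35 tested were called higher and 12 lower in the liver of control pigs, and 14 and 10 in PFA pigs. Of all genes, 21.1% were called higher and 23.7% lower in control pigs, and 21.7% and 22.6% in PFA pigs. The median of the pathway genes was 0.33 and 0.61 on the log2 scale, beside -0.03 and -0.03 over all genes. TTR, which carries RBP4 in plasma, the alcohol dehydrogenase ADH4 and the retinal dehydrogenase ALDH8A1 had 0 counts in the control ileum and means of 6503, 1101 and 155 CPM in the liver. BCO1, which cleaves carotenes to retinal, held 243 ± 33.8 CPM in the liver and 0.458 ± 0.129 CPM in the ileum (SD, n = 5). The retinal oxidase AOX1, the retinol dehydrogenase HSD17B6 and the lipoprotein receptor SCARB1 were higher in the liver by 6.94, 6.92 and 2.70 on the log2 scale.

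The genes higher in the ileum were led by ISX, an intestinal transcription factor that represses carotenoid uptake, with 39.2 ± 6.85 CPM in the ileum and 0 counts in the liver. LPL and the intestinal retinol carrier RBP2 held 71.0 ± 12.5 and 92.4 ± 40.7 CPM in the ileum and 0.0818 ± 0.0906 and 0.496 ± 0.309 CPM in the liver. The retinol dehydrogenases SDR16C5 and RDH5, the receptor RXRG, the retinal dehydrogenase ALDH1A3 and the retinoic acid carrier FABP5 were lower in the liver by -7.30, -3.75, -5.63, -3.10 and -2.80. The retinal dehydrogenases ALDH1A1 and ALDH8A1 were higher in the liver and ALDH1A3 in the ileum.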

How the data were processed

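RNA-seq was done on ileum and liver of piglets. The deposited values are gene counts: per the labels and methods, the authors aligned read pairs to Sscrofa11.1 with STAR 2.6.1d and counted them per Ensembl gene with HTSeq. They used DESeq2, for which the submitters' processing notes give version 1.22.2 and the methods another version. Neither the annotation release nor the strand setting of HTSeq is given in the sources used here. Rows that name no gene were left out of library sizes. Read pairs on no gene came to 7.54 to 23.5 per 100 counted on genes in liver and 22.8 to 27.9 in ileum, those on several genes to 2.70 to 4.44 and 2.24 to 2.51, and those with several alignments to 3.01 to 14.7 and 4.63 to 6.19. These liver ranges leave out OP-77, with 16.5, 4.81 and 36.6.

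Tests were run in R 4.3.3 with edgeR 4.0.16 (limma 3.58.1), and DESeq2 1.42.0 served as an alternative. Tables were made in Python 3.11.15 with pandas 2.3.3 and numpy 2.4.6. Libraries were scaled by TMM, and genes were filtered by filterByExpr. The prior count for log2 CPM was 2. Testing was two-sided, by edgeR's quasi-likelihood test over all genes kept, in 1 fit of 23 livers (without OP-77, taken as the library the study left out), 1 of 10 ileum libraries and 1 for the tissues in each diet, and genes were called at an adjusted p (Benjamini-Hochberg) of at most 0.05, between tissues also at a fold change of at least 2. SEs were derived from the log2 fold change and the F statistic of the test, so they include the spread between pigs. A library with 3 counts of a gene is near the limit of counting.

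The pig numbers of the labels were taken to mark the same animal in both tissues. The deviations of the tissues of 1 pig from their group means correlated at -0.04 to 0.33 in control and -0.21 to 0.47 in PFA pigs. The highest correlation of each liver with the ileum of another pig was 0.06 to 0.28 and -0.10 to 0.38. In most pigs that value was above the pig's own, so these correlations cannot show that the match is right. The 8 genes with a row are described, with the 8 highest and 8 lowest called genes of the pathway list between tissues (1 of these is not reported here), and the 5 genes most correlated with DHRS4 and RETSAT. Members and lists were chosen with earlier results of these data known. For the GC correction, a lowess curve against the GC content of RefSeq exons was removed from each library. This step and the fits within a title form were chosen after seeing the data. Promoters and positions came from RefSeq on Sscrofa11.1, and promoters were searched on both strands for DR1, DR2 and DR5 repeats. The edgeR test was tried on simulated counts for OO + PFA against PFA in the liver, PFA against control in the ileum, and the tissues in control pigs. The other fits were not.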

Additional observations from a re-analysis of the deposited data

Results flagged for a closer look

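Among 45 combinations of a gene with a tissue and diet, 8 held a pig far from the others of its diet, its gap to the nearest pig being large against the whole range. Chance alone marks about 1 in 20 groups this way. In the liver these were CYP26A1 in OO-74, with 16.0 CPM where the other OO livers held at most 5.58 CPM, ALDH1A1 in the same liver with 2843 CPM, and DHRS3 in P-75 with 195 CPM. DHRS4 in OO-74 was 463.5 CPM, within the range of the other OO livers, and RETSAT was 453.1 CPM.

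In the ileum these were ALDH1A1 in P-138 with 661 CPM, LRAT in C-92 with 66.2 CPM, and 3 genes at a few counts: RBP4 in P-95 with 0.518 CPM from 12 counts, CYP26A1 in C-110 with 0.483 CPM from 9 counts, and STRA6 in C-80 with 2.40 CPM from 63 counts.

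OP-77, the OO + PFA library kept out of the fits as the one taken to have been left out by the study, held 241 CPM of DHRS4, above all 6 control livers and within the OO + PFA range of 234.1 to 298.5 CPM. Its RETSAT level of 153 CPM was within the control range and below the other OO + PFA livers, which begin at 331.9 CPM. Its RBP4 and ALDH1A1 levels of 999 and 1047 CPM were below all control livers.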

How the results depend on the processing

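The number of the 7 genes (5 in the ileum) called was within 1.5 times its main value in 143 of 153 combinations of a comparison with an alternative. For OO against control it was 1 in place of 2 with PL libraries alone, and for OO + PFA against PFA it was 0 in place of 2 with PL libraries alone, which hold 1 OO + PFA liver. For OO + PFA against OO it was 1 in place of 0 with all 24 livers, with DESeq2 and with the GC correction, and for the interaction 1 in place of 0 with DESeq2 and with the GC correction. The gene was DHRS4 each time, and both comparisons use the OO livers by which it was chosen, so nothing is read from these counts. Leaving out 1 pig at a time gave 0 to 1 for both, 1 without OO-97, and without OO-102 for the former. The cause was not tested. With the pig as a replicate block between tissues, 6 genes were called in control and 6 in PFA pigs, as without it, and the block changed no call of these genes. The interaction has no fit of the diets compared alone. Of 54 log2 fold changes, 16 changed sign under at least 1 alternative, all uncalled and at most 0.26 in size. DHRS4 lay between 3.32 and 3.68 for OO against control and between 2.09 and 2.44 for OO + PFA against PFA, and RETSAT between 1.49 and 1.99 and between 1.19 and 1.42. Depth limits STRA6 in both tissues and RBP4 and CYP26A1 in the ileum, with at most 12 counts per library except STRA6 in C-80.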
